A study of Physcomitrium patens with 10 samples.

Results

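In the moss Physcomitrium patens, small RNAs of gametophores (leafy shoots) were compared between the fully rehydrated state (FRE) and the severely dehydrated, desiccated state (SDH), which together span the whole of recovery from drying. By their titles, 4 of the 10 samples of the series belong to these states, 2 replicates in each, and the others are hydrated (HD), moderately dehydrated (MDH) and partially rehydrated (PRE) gametophores. All plants grew on BCD medium. The labels give no strain, genotype or age, nor how long drying and rewetting lasted. The treatment field disagrees with the title in all 4 samples (SDH is called moderately dehydrated there, and FRE is called severely dehydrated in 1 sample and partially rehydrated in the other). Over the whole series it disagrees in 7 of 10 samples. Both PRE samples are called severely dehydrated there, and 1 MDH sample is called hydrated. Since the table columns carry the names of the titles, the titles were followed. The tables hold small RNAs named as moss miRNAs and no marker by which the tissue or its water status could be checked. The miRNAs carry 1 authors' value per state, in RPM (reads per 1000000), and none per replicate. The titles number the replicates 2 and 3, and which libraries enter each value is not given. No difference below therefore has a replicate check, an error or a p-value, the depth of each library is unknown, and no library could be left out. Of 280 miRNA names, 214 reached 3 RPM or more in the higher of the 2 states and were compared. The other 66 names are counted separately at the end.

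A plant miRNA is cut from a hairpin precursor as a duplex of which usually 1 strand, the guide, is kept in an Argonaute protein, and it directs cleavage of messenger RNAs with a closely matching site. Many plant miRNA families target transcription factors of development and hormone response, and mosses hold, beside families shared with other land plants, many that are not found outside them. Physcomitrium patens survives considerable loss of water and resumes growth when rewetted. Levels in RPM are shares of a library, so a shift in a very abundant miRNA moves all others, and in whole shoots fewer cells with a miRNA and less of it per cell cannot be told apart.

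A miRNA is called higher or lower in FRE where log2((FRE + 1)/(SDH + 1)), computed on RPM, passed 2-fold. Folds are printed as the ratio of the RPM values themselves. Of the 214 names, 32 were higher in FRE and 15 lower, which is 15.0% and 7.01% of those compared and 22.0% together. With 1 RPM added, 2 names were more than 4-fold higher, miR1077-3p and miR1041. On the same scale 1 was more than 4-fold lower, the scarce miR1222b at 5.5 RPM in SDH and 0.3 RPM in FRE. The scarce miR1060, at 0.8 RPM in SDH and 5.3 RPM in FRE, passed 4-fold only in the plain RPM values. The same held for miR1031a and miR1031b, both at 0.4 and 3.2 RPM. The higher names came from 18 families and the lower ones from 11. Most names lay slightly below equality: 129 were below 0 on the log2 scale and 84 above it, the median was -0.19 and the quartiles were -0.48 and 0.29. The split therefore depended on scaling. Median-of-ratios scaling added 0.15 to the log2 ratio of the RPM values (less once the pseudocount is added, for scarce names) and gave 34 higher and 6 lower, scaling to the sum over all names added 0.14 and gave 34 and 7, and scaling to the sum outside the miR535 family added 0.39 and gave 42 and 4. The share of higher names among those past 2-fold went from 68.1% to 85.0%, 82.9% and 91.3% under these scalings. Other settings moved that share in either direction. Merging names with near-identical values left 146 items to compare, of which 22 were higher and 14 lower, a share of 61.1%. Pseudocounts of 0.1 and 10 RPM gave shares of 64% and 62.5%. No minimum gave 67.3%, a minimum of 10 RPM 69.2%, a minimum of 30 RPM 65.5% and members summed per family 72.2%. Under both other pseudocounts tried and all 3 scalings, 10 of the higher and 3 of the lower names stayed past 2-fold. The 10 are miR1077-3p, miR1041, miR1043-3p, miR1221-5p, miR1221-3p, miR903, miR1218, miR319d.2*, miR1026a and miR1026b, and the 3 are miR1050, miR1065 and miR390b.

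**Figure D1:**
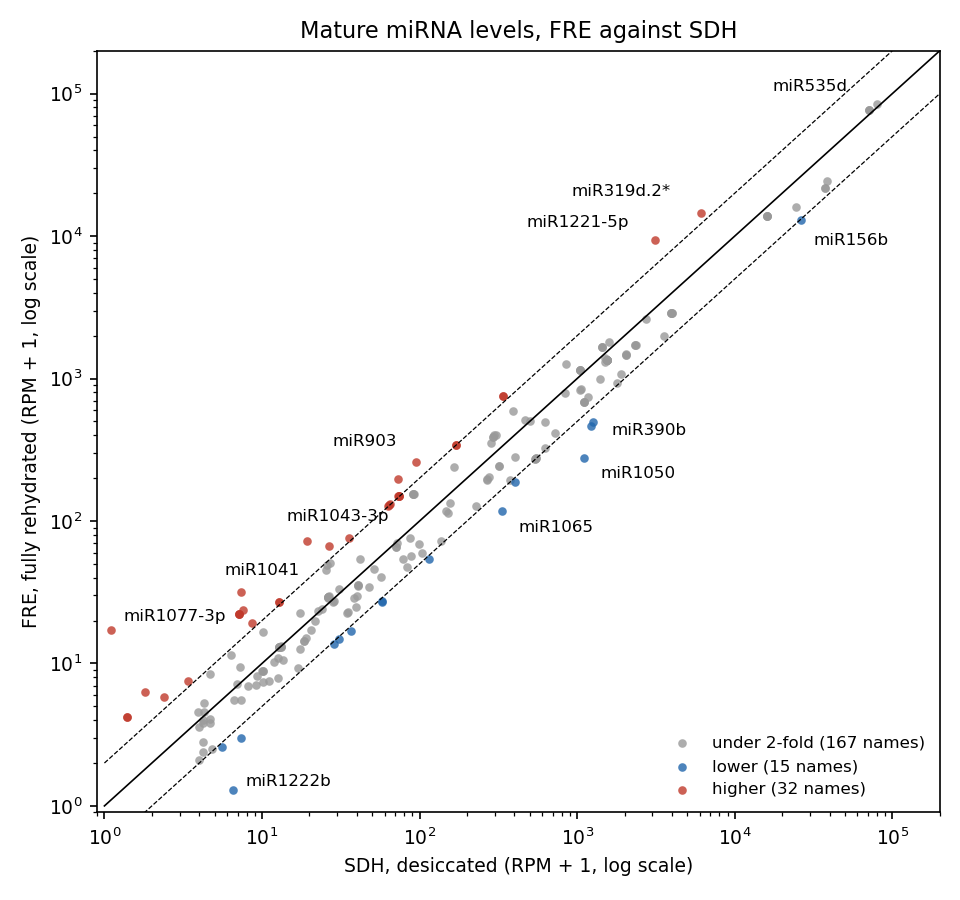
Level of each of the 214 compared miRNA names in SDH (x axis) and FRE (y axis), as RPM + 1 on log scales, 1 authors' value per state. The solid line marks equality and the dashed lines 2-fold. Above 1000 RPM few points lie outside the dashed lines, while in all 32 names lie above the upper dashed line and 15 below the lower one. Near-identical copies are plotted as separate points.

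The miR319 family, whose guides target TCP and MYB transcription factors of leaf and flower development in flowering plants, had 4 of 7 names higher and none lower. Its most abundant name, miR319d.2*, was at 6112 RPM in SDH and 14558 RPM in FRE (2.38-fold), the highest level of the 5 states, after 10045 RPM in HD, 6594 in MDH and 3572 in PRE. A star marks the strand of the duplex that was held to be the less abundant when it was named, and yet this name was the 9th in level in FRE. The guide names miR319c, miR319d and miR319e were at 63.7, 62.8 and 62.1 RPM in SDH and at 130, 129 and 127 RPM in FRE, with log2 fold changes of 1.02 each. Of these, miR319c and miR319d are near-identical copies. miR319a and miR319b stood just under the line at 0.90 and 0.94, and the other star name, miR319d.1*, at 0.31, with 281 RPM in SDH and 350 RPM in FRE. The family sum went from 6633 to 15392 RPM, nearly all of it the single name miR319d.2*. The targets of miR319d.2* were not examined, so those given for the guides are not assigned to that name. With a pseudocount of 10 RPM only that name of the family passed 2-fold.

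The miR156 family represses SPL transcription factors, which drive shoot maturation in flowering plants and act on bud formation in this moss. All 3 of its names lay below 0 on the log2 scale, under each scaling too, and 1 passed 2-fold. miR156b was at 26391 RPM in SDH and 12903 RPM in FRE (2.05-fold lower), the lowest of the 5 states beside 37600 RPM in HD, 19665 in MDH and 13734 in PRE. miR156a and miR156c, whose levels are near-identical, were at 37437 and 37438 RPM in SDH and at 21727 and 21728 RPM in FRE, a log2 fold change of -0.78 for both. miR156b lost its call under all 3 scalings, where its log2 fold change came closest to 0 at -0.64, but stayed below 0.

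miR529 also matches SPL genes, and its members differed. The scarce miR529e and miR529f, which share their values, were at 11.8 RPM in SDH and 26.0 RPM in FRE (2.2-fold higher), after 107 RPM in PRE. The abundant miR529a, miR529b and miR529c were at 2032, 2042 and 2033 RPM in SDH and at 1468, 1478 and 1468 RPM in FRE, log2 fold changes of -0.47. miR529d was at 405 and 280 RPM and miR529g at 15.8 and 8.3 RPM, the latter at -0.85. Of 7 names 2 passed 2-fold upward and none downward. Summed over the family the level was 6551 RPM in SDH and 4754 RPM in FRE, a log2 fold change of -0.46.

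The other regulators of developmental transcription factors stayed under 2-fold. The 13 names of miR166, which target HD-ZIP III genes of leaf polarity and meristem function in flowering plants, lay between -0.68 and -0.06 in log2 fold change. Within them miR166j, miR166k and miR166l stood apart at -0.68, at 1103 RPM in SDH and 687 RPM in FRE, while the 9 names from miR166a to miR166i were at -0.19. The 3 names of miR538, which targets MADS-box genes in this moss, were at -0.45, both names of miR171, which targets GRAS genes, at -0.38, and miR534a, a repressor of BLADE-ON-PETIOLE genes in moss, at 12.5 and 9.6 RPM (-0.35). Of 36 compared names on the whole list of developmental regulators, 6 were higher (16.7% against 15.0% over all names compared), all of miR319 or miR529, and 1 was lower (2.78% against 7.01%), miR156b. The star name miR319d.2* is among the 6, counted by its family number, and the 6 hold 4 separate values. The list's median was -0.19 and turned to 0.20 with scaling outside miR535. Over all names compared the median was also -0.19, but both medians fall among the values of miR166a to miR166i. Those 9 names are 1 set of near-identical copies and belong to the list. With copies merged, the median over all items was -0.205.

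Auxin-related families held names that went in both directions. miR390 guides the cleavage of TAS3 transcripts, from which small interfering RNAs against auxin response factor genes and, in moss, AP2-type genes are made. miR390b was at 1217 RPM in SDH and 462 RPM in FRE (2.64-fold lower), and miR390a at 1253 and 492 RPM (2.55-fold lower). In HD these names had stood at 1171 and 1232 RPM and in PRE at 509 and 525 RPM, so FRE held the lowest level of both. miR390c stood apart, at 294 RPM in SDH and 400 RPM in FRE (log2 fold change 0.44), and its star arm miR390c* was higher, at 7.7 and 18.2 RPM (2.36-fold). HD had held 985.5 RPM of miR390c and 30.1 RPM of miR390c*. As a sum the family was at 2772 RPM in SDH and 1372 RPM in FRE. The call of miR390c* was lost with a pseudocount of 10 RPM (0.67), and that of miR390a with scaling outside miR535 (-0.96).

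miR1219, a moss family that targets auxin response factor genes, was higher in all of its names. miR1219a, miR1219b and miR1219c have identical values and were at 6.1 RPM in SDH and 21.1 RPM in FRE (3.46-fold). miR1219d was at 6.6 and 22.7 RPM (3.44-fold). Those FRE levels were above the 9.6 RPM of miR1219a and the 11.5 RPM of miR1219d in HD. All 4 names are scarce, and with a pseudocount of 10 RPM their log2 fold changes were 0.95 to 0.98. The 8 compared names of miR160, which also targets auxin response factors and is shared by land plants, lay between -0.46 and -0.07, with miR160a at 39.9 RPM in SDH and 34.8 RPM in FRE. Of the 16 auxin-related names 5 were higher (31.2% against 15.0% over all names compared) and 2 lower (12.5% against 7.01%), and the 5 hold 3 separate values. The median was -0.19 against -0.19 over all names compared, while the mean was 0.22, and the median turned to 0.44 with a minimum of 10 RPM and to 0.19 with scaling outside miR535.

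The lists of small RNA machinery, nutrient and copper, and stress-linked families were short. miR904a and miR904b, which target the AGO1 gene in moss, were at 1056 and 1043 RPM in SDH and at 839 and 832 RPM in FRE, both at -0.33. They had peaked in PRE at 1737 and 1723 RPM. miR1047-3p, from a precursor in an intron of the moss DCL1 gene, was at 10.1 and 6.5 RPM (-0.57), so that none of the 3 names of this list passed 2-fold. miR408b belongs to a family that represses copper-binding proteins in flowering plants. It stood at 114 RPM in HD but at 0.1 RPM in SDH and 1.8 RPM in FRE, below the minimum in both, and no name of the nutrient and copper list could be compared. All 7 compared names of the list linked to stress in flowering plants were of miR319. It had 4 higher (57.1% against 15.0% over all names compared), none lower and a median of 1.02, which therefore describe that family. The 4 hold 3 separate values, since miR319c and miR319d are near-identical copies. The star name miR319d.2* is again counted there by its family number.

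**Figure D2:**
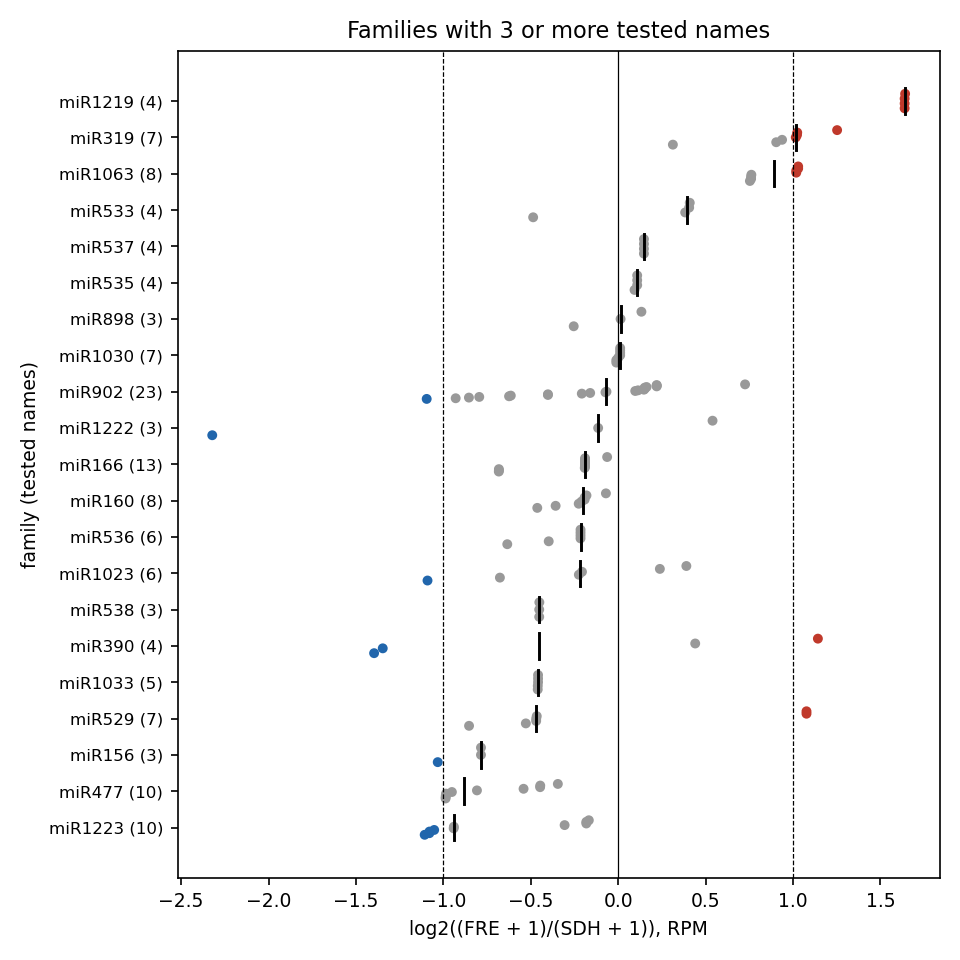
Log2 fold change of every compared name (points) in the 21 families with 3 or more compared names, sorted by the family median (black bar), with the number of names in brackets. Red points are at least 2-fold higher in FRE, blue ones at least 2-fold lower, and dashed lines mark 2-fold. miR1219, miR319 and miR1063 stand at the high end with medians of 1.64, 1.02 and 0.89, miR1223, miR477 and miR156 at the low end with -0.94, -0.88 and -0.78, and miR390 spans from -1.40 to 1.14.

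In RPM, most of the difference between the states lay in a few abundant families. Over all names the level summed to 629248 RPM in SDH and 571803 RPM in FRE, and the sum outside miR535 to 335052 and 255519 RPM. Copies with near-identical values enter these sums more than 1 time each. Taking their mean instead gave 349908 and 311858 RPM. Families that were smaller in FRE lost 98600.4 RPM together, of which miR156 made up 45.5% and miR1023 15.0%. Families that were larger in FRE gained 41154 RPM together, of which miR535 made up 53.7%, miR319 21.3% and miR1221 15.6%. These shares count near-identical copies separately. Merging copies left a difference of -29198 RPM for miR156, -14742 RPM for miR1023, 10908 RPM for miR535, 8693 RPM for miR319 and 6434 RPM for miR1221, and that of miR536 went from -8986 to -2277 RPM.

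miR535, related in sequence to miR156 and miR529, remained the most abundant family. miR535d was at 79535 RPM in SDH and 84852 RPM in FRE, and miR535a, miR535b and miR535c were each at 71554 and 77144 RPM, log2 fold changes of 0.09 and 0.11. PRE had held 48898 RPM of miR535d and HD 129549 RPM. miR1023a-3p followed at 38776 RPM in SDH and 24258 RPM in FRE (-0.68), still above its 3805 RPM in HD. The abundant names of miR536, such as miR536b at 16109 and 13873 RPM, were all at -0.22. miR1214 was at 24344 and 16001 RPM (-0.61) and the 5 names of miR1033 at -0.46. Sign changes of family sums were looked for only in families with 3 or more compared names. There, the negative sums of miR536, miR166 and miR160 changed sign with scaling outside miR535. Those of miR533, miR1222 and miR1030, all within 0.10 of 0 on the log2 scale, changed sign with all 3 scalings. Smaller families can depend on scaling too.

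**Figure D3:**
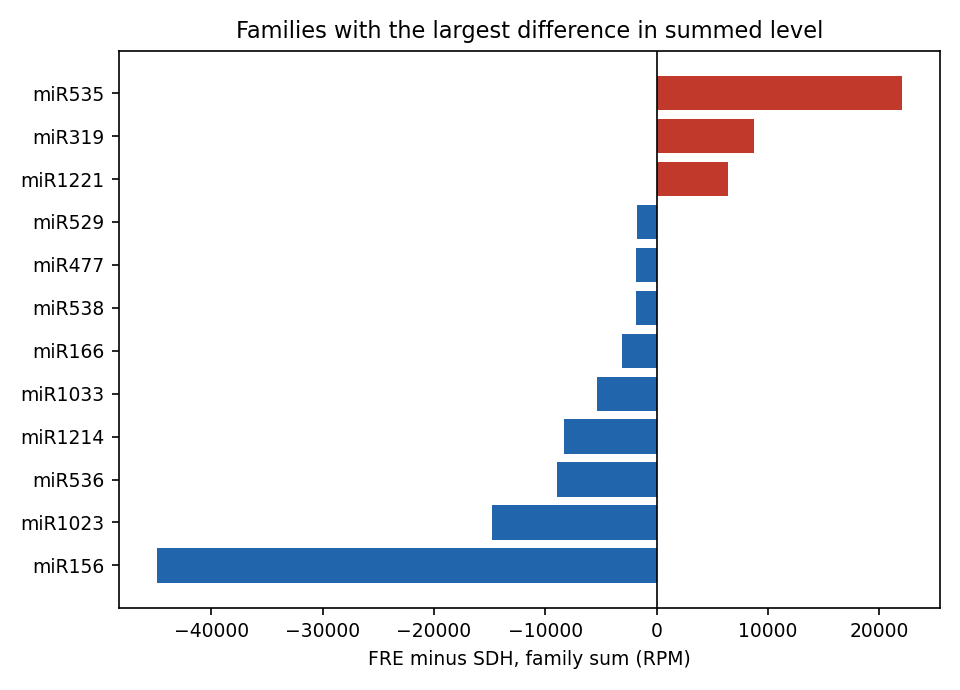
Difference in summed level, FRE minus SDH in RPM, for the 12 families with the largest difference in either direction. Near-identical copies are counted separately, which enlarges the differences of miR156, miR535 and miR536 most among the families named here. miR156 (-44909 RPM) and miR1023 (-14742 RPM) carried the largest losses, miR535 (22088 RPM), miR319 (8759 RPM) and miR1221 (6434 RPM) the largest gains.

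Families outside the list shared by land plants made up 150 of the 214 names, of which 25 were higher (16.7% against 15.0% over all names compared) and 12 lower (8.0% against 7.01%), shares close to those over all names. Their median was -0.07 and their mean 0.04, and the median turned to 0.07 with median-of-ratios scaling. The 64 names of conserved families had 7 higher (10.9%) and 3 lower (4.69%), a median of -0.22 and a mean of -0.21, and that median turned to 0.17 with scaling outside miR535. The targets of most of these moss families are less well established, so no role is given for the members below.

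Among the higher moss names, miR1221 was the most abundant. Its arm miR1221-5p was at 3138 RPM in SDH and 9448 RPM in FRE (3.01-fold), between 866 RPM in MDH and 17068 RPM in HD. The arm miR1221-3p was at 71.5 and 196 RPM (2.74-fold), with 226 RPM in HD. Both arms thus kept their proportion, with miR1221-5p holding 97.8% of the pair in SDH and 98.0% in FRE.

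miR1041 was at 6.4 RPM in SDH and 30.9 RPM in FRE (4.83-fold), against 43.3 RPM in HD and only 1.7 RPM in PRE. miR1043-3p was at 18.4 and 70.9 RPM (3.85-fold), although it had reached 583 RPM in PRE and stood at 859.5 RPM in HD. miR903 was at 93.6 and 258 RPM (2.75-fold), with 597 RPM in PRE and 104 RPM in HD. These names did not move steadily from desiccation to full rehydration: miR1043-3p and miR903 were highest among SDH, PRE and FRE at partial rehydration, and miR1041 was lowest there.

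miR1218 was at 25.7 RPM in SDH and 65.5 RPM in FRE (2.55-fold), above its 41.8 RPM in HD. miR1026a and miR1026b, near-identical copies, were at 338 RPM in SDH and 757 RPM in FRE (2.24-fold), close to 750 RPM in HD. Of 8 names of miR1063, 4 were higher, with miR1063d at 72.3 and 149 RPM (2.06-fold), and the others stayed just under the line, down to miR1063f at 91.2 and 154 RPM (1.69-fold). These 8 names fall into 2 sets of near-identical copies, so they are not 8 separate observations. Other higher names were miR1024a and miR1024b, both at 168.3 and 341.8 RPM, miR1215 at 34.5 and 75.1 RPM, and miR1217-5p. The scarce miR1072, miR1060, miR1031a and miR1031b lay under 7 RPM in both states.

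Among the lower moss names with 10 RPM or more miR1050 had the largest change, at 1098 RPM in SDH and 278 RPM in FRE (3.95-fold lower). In HD, MDH and PRE it stood at 299, 268 and 355.5 RPM, so that SDH alone held a high level. miR1065 was at 331 and 117 RPM (2.83-fold lower), with 247 RPM in HD and 246.5 RPM in PRE, and its FRE level was the lowest of the 5 states. miR1216 was at 27.8 and 12.7 RPM (2.19-fold lower), miR902j-5p at 115 and 53.1 RPM (2.16-fold lower) and miR1023b-3p at 401 and 188 RPM (2.14-fold lower). The scarce miR1058 was at 6.4 and 2.0 RPM, and miR1222b is given above. miR1216, miR902j-5p and miR1023b-3p lost their calls under all 3 scalings.

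Of 10 names of the miR1223 family 4 were lower and none higher, with a median of -0.94. miR1223b and miR1223c were at 56.7 and 56.5 RPM in SDH and 26.3 and 26.2 RPM in FRE (2.16-fold lower), close to 24.3 and 24.1 RPM in HD. miR1223d was at 29.7 and 13.8 RPM (2.15-fold lower) and the scarce miR1223i at 4.6 and 1.6 RPM. The most abundant member, miR1223a, fell short of the line at 623 and 324 RPM, a log2 fold change of -0.94, and miR1223e was the nearest to equality at 9.0 and 7.9 RPM. None of the 4 calls held under all 3 scalings, though the family sum stayed below 0 in each.

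The miR477 family, conserved in land plants, gave no call, with 4 names at -0.98 or -0.99. miR477a-5p was at 545 RPM in SDH and 275 RPM in FRE, a log2 fold change of -0.99, with 584 RPM in PRE and 243 RPM in HD. All 10 names lay between -0.99 and -0.35, and the family summed to 4509 RPM in SDH and 2638 RPM in FRE. The names f, g and h were the nearest to equality, such as miR477g-3p at 626 and 493 RPM, against 102 RPM in HD. The miR902 family, with 23 compared names the largest, had a median of -0.07 and 1 call, miR902j-5p.

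For 25 precursors both arms could be compared. The arms differed by less than 0.5 in log2 fold change in 13 of them and by 1 or more in 5, with a median difference of 0.48. Among the 13, miR902c, miR902e and miR902g hold near-identical values in both arms and are not separate observations. Other miR902 precursors share the values of an arm. The widest gap was that of miR1077, whose arms were called in opposite directions. miR1077-3p was listed at 0.1 RPM in SDH and 16.3 RPM in FRE, and miR1077-5p went from 35.9 to 16.0 RPM (2.24-fold lower). The 5p arm thus held 99.7% of the pair in SDH and 49.5% in FRE. The call of miR1077-5p was lost with a pseudocount of 10 RPM (-0.82) and under the 3 scalings (-0.97, -0.99 and -0.74). In HD the 3p and 5p arms had been at 51.4 and 54.7 RPM, in MDH at 0.6 and 7.5 RPM, and in PRE at 1.7 and 18.4 RPM. The arms were thus near-equal in HD and in FRE and unequal in MDH, SDH and PRE. The log2 fold change of 3.98 for miR1077-3p rests on the 0.1 RPM, the smallest step of the tables, and no fold is given for it.

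The next gaps concerned scarce arms. miR1217-5p was at 1.4 RPM in SDH and 4.8 RPM in FRE (3.43-fold higher) while miR1217-3p was at 151 and 113 RPM (-0.41). miR902l-5p was at 33.6 and 21.6 RPM and miR902l-3p at 9.1 and 15.7 RPM, log2 fold changes of -0.61 and 0.73. For the abundant miR1023a the 3p arm was at -0.68 and the 5p arm, at 40.6 and 53.5 RPM, at 0.39. A last list held the names with a star. Where the 5p and 3p arms of a precursor are both listed, it also held the arm with the lower mean RPM over the 5 states. That mean includes SDH and FRE, so part of the list was drawn from the compared values themselves. Of the 27 compared star or less abundant arms 5 were higher (miR1077-3p, miR1217-5p, miR1221-3p, miR319d.2* and miR390c*), 18.5% against 15.0% over all names compared, and 1 was lower, miR902j-5p, 3.70% against 7.01%. Their median was 0.10 against -0.19 over all names, and it ranged with the setting from -0.47 (minimum of 30 RPM) to 0.40 (scaling outside miR535).

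Counted by name, the calls were spread over the levels below 1000 RPM and were fewer above. At 1000 RPM and above many names are near-identical copies, such as miR166a to miR166i and miR535a to miR535c. Those classes therefore hold fewer separate values than names, and a shortage of calls among separate values is not shown. Of 36 names with a mean of both states under 10 RPM, 6 were higher and 3 lower, of 74 names from 10 to 100 RPM 14 and 6, and of 54 names from 100 to 1000 RPM 10 and 5. Among 36 names from 1000 to 10000 RPM 1 was higher, miR1221-5p, and none lower, and among 14 names above that 1 was higher, miR319d.2*, and 1 lower, miR156b. Set beside the shorter spans, with the same minimum, 9.48% of 211 names passed 2-fold in PRE against SDH (13 higher, 7 lower) and 16.8% of 214 names in FRE against PRE (15 higher, 21 lower). The 3 comparisons share states, and their differences were not tested.

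At the 2-fold line the lower names just inside it were miR1216, miR1223d and miR156b, at -1.07, -1.05 and -1.03, and those just outside were miR477a-5p, miR477b and miR477e, all at -0.99. The higher names just inside it were miR319c, miR1024a and miR1024b, all at 1.02, and those just outside were miR319b, miR319a and miR2083-3p, at 0.94, 0.90 and 0.85. At the minimum of 3 RPM, miR1068 and miR902f-3p entered with 3.0 RPM in SDH and miR1031a with 3.2 RPM in FRE, and miR1036-3p, miR1222c and miR533e, at 2.9, 2.8 and 2.7 RPM in SDH, did not. Of the 66 names below the minimum, 18 were listed at 0 in both states.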

How the data were processed

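From total RNA, the size range of 18 to 30 nt was selected, and adaptors, reverse transcription and PCR followed, per the labels' protocols. Ligation and PCR favour some small RNAs, so 1 miRNA compares better between states than different miRNAs within a state. Not given in the sources used here are the aligner, genome build, miRNA reference and treatment of reads matching several names. Whether and how replicates were combined is not given either. Mature sequences were not used here. Of 8 tables, 4 hold RPM as deposited by the authors, in steps of 0.1 RPM, for HD and 1 other state. Which reads the total covers is not stated. Columns were joined by miRNA name, and HD was the same in all 4. The other 4 tables hold the authors' comparisons with HD and served as a check. Per the file headers they give a total (10000000 in every state) and an expression score, which equalled 10 times the RPM for every name, log2 fold changes deposited by the authors, which equalled the log2 ratio of RPM with 0 replaced by 0.01, and the authors' deposited p-value, whose test is not named. They hold no comparison of FRE with SDH.

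Since there is 1 value per state, no test was made. log2((FRE + 1)/(SDH + 1)) was computed with Python 3.11.15 and pandas 2.3.3 for names with at least 3 RPM in the higher state. The calculation was run on simulated levels with known folds, set on names with at least 30 RPM in SDH. That simulation assumed a depth and had counting error only. It therefore does not cover replicate variation or changes in scarcer names. Near-identical copies are names of 1 family and arm, with at least 3 RPM in some state, that differ by at most 5% or 0.5 RPM in each of the 5 states, and names linked through another name join the same set. They hold 100 of the 280 names in 32 sets, among them 19 of the 47 called names. Whether reads are shared within a set was not tested. Alternatives were pseudocounts of 0.1 and 10 RPM, no minimum or a minimum of 10 or 30 RPM, 3 scalings, 1 value per set of copies, and family sums. Named by rule were the 12 largest rises and falls at 10 RPM or more, the 5 most abundant names per state, the largest change of each list, the 3 precursors with the widest arm difference, the extremes of families with at least 3 compared and 2 called names, and the 3 names on each side of the 2-fold line. Other names complete a family, list or call set and were picked with their values known. The comparison and the lists by family number were chosen with earlier results of these data known.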

Additional observations from a re-analysis of the deposited data

How the results depend on the processing

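No paired analysis was possible because the columns carry 1 value per state and no replicate number, and for the same reason no replicate could be left out. The 32 higher and 15 lower names became 10 and 6 with a pseudocount of 10 RPM and 13 and 5 with members summed per family, where fewer items were compared (81). With a minimum of 30 RPM 19 were higher. Merging copies left 22 higher and 14 lower among 146 items. The lower names were 6 with median-of-ratios scaling, 7 with scaling to the sum over all names and 4 with scaling outside miR535, and the median of -0.19 became -0.041, -0.052 and 0.20. Of the 30 values of these 3 results under the alternatives, 19 stayed within 1.5 times the count or 0.1 of the median. Among the named miRNAs no called value changed sign, 42 values dropped under 2-fold and 2 rose past it. Depth is unknown, so what it limits could not be computed.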

Other observations

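Of the names below the minimum in SDH and FRE, miR408b, miR1073-5p, miR1042-3p and miR1028b-5p reached at least 3 RPM in another state. miR1073-5p was at 24.2 RPM in HD, 0.5 RPM in SDH, 7.3 RPM in PRE and 1.2 RPM in FRE. miR1042-3p was at 3.1 RPM in HD, listed at 0 in SDH and at 0.1 RPM in FRE. miR1028b-5p was at 3.1 RPM in HD, 2.5 RPM in SDH and 0.8 RPM in FRE.

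In 2 further families the names differed among themselves. In miR533 the names miR533a, miR533c and miR533d had log2 fold changes of 0.38, 0.41 and 0.41, while the star arm miR533a* was at 1401 RPM in SDH and 999.7 RPM in FRE (-0.49). In miR1222 the abundant miR1222a was at 1506 and 1390 RPM (-0.11) and miR1222d at 163 and 238 RPM (0.54). These names were chosen after their values were seen.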
